A study of Mus musculus with 20 samples.

Results

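The Fc gamma receptors are the cell surface proteins by which macrophages bind the constant region of immunoglobulin G. Their transcripts were measured here in sorted microglia, the resident macrophages of the brain. The 4 mouse receptor genes Fcgr1, Fcgr2b, Fcgr3 and Fcgr4 and the shared signalling chain Fcer1g were taken by symbol, which gave 5 of the 54838 genes in the count files. All 5 held counts in 20 of 20 libraries, and all 5 passed the filter on low counts. Each library came from 1000 cells of 1 mouse at postnatal day 40, sorted from frontal cortex as high for CD11b and low for CD45.

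The labels name 5 genotypes, with 2 libraries of hC4A/A, 5 of hC4A/-, 4 of hC4B/-, 5 of C4-/- and 4 of WT. C4 is a complement protein of the classical route, and the series is described as transgenic for human C4 sequences (hC4A and hC4B). Which mouse C4 alleles accompany the human genes, and which promoter drives them, is not given in the sources used here. Mouse C4b held 0, 0, 2 and 0 counts in WT libraries and 4 to 428 counts in all 16 remaining libraries, including those labelled C4-/-, so the genotypes below are named as labelled. The WT libraries alone carry deposited names of a different kind, so genotype and a possible separate series cannot be told apart for WT.

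Gene counts ran from 855099 to 2735181 per library. Satellite-like genes took 13.3% to 81.0% of them. In 4 libraries, hC4A/A 2, hC4B/- 2, hC4B/- 3 and C4-/- 3, between 27178 and 30907 genes were detected, against 11348 to 23912 in the remaining 16, and these are called broad libraries below. The 12 microglia markers were all detected in every genotype, with summed levels of 4407 to 8413 CPM in hC4A/A, 5791 to 9783 CPM in hC4A/-, 5823 to 9138 CPM in hC4B/-, 7448 to 8797 CPM in C4-/- and 7502 to 9950 CPM in WT. CPM is the count relative to the library size, scaled with the TMM method.

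Fcgr1, Fcgr3 and Fcgr4 encode activating receptors, which need the Fcer1g chain for assembly at the surface and for signalling through its tyrosine-based activation motif. Fcgr2b encodes the only inhibitory member, which carries an inhibitory motif in its own cytoplasmic tail and recruits the lipid phosphatase SHIP-1. When immune complexes bind, the balance between the activating and inhibitory receptors sets the threshold for phagocytosis and cytokine release in macrophages.

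Fcgr1 lies apart from the rest, at GRCm38 chr3:96282909-96293969 on the minus strand. The remaining 4 genes lie within 275.749 kb of chromosome 1. Fcgr2b is at chr1:170958617-170976547 on the minus strand and Fcgr4 at chr1:171018920-171029761 on the plus strand. Fcgr3 is at chr1:171051174-171064935 and Fcer1g at chr1:171229572-171234365, both on the minus strand. Of the 50-base stretches in the exons of Fcgr3, 9.58% also occur in Fcgr2b, and 6.95% of those of Fcgr2b occur in Fcgr3 or in other genes, so a part of the reads of this pair could be placed in either gene or left out as multimapping. No such stretch of Fcgr1, Fcgr4 or Fcer1g occurs in another gene. An antisense gene, Gm38204, shares 155 exon bases with Fcgr2b and held 2 counts over all libraries, in a counting that did not use strand.

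The 120 bases before the RefSeq start site of the activating receptors and of Fcer1g are shown because these genes lie in 2 places of the genome yet are read together in the comparisons below. The sequences are from the GRCm38.p6 annotation, printed 5′ to 3′ on the strand of the gene, and end at the base before the start site. Capitals mark matches to GAGGAA, a core bound by the macrophage factor PU.1 and other ETS proteins, and to TTCNNNGAA, an element of promoters that respond to interferon gamma. Both strands were searched, so GAGGAA on the opposite strand appears as TTCCTC, and the 2 motifs did not overlap.
Fcgr1, chr3:96293970-96294089, minus strand: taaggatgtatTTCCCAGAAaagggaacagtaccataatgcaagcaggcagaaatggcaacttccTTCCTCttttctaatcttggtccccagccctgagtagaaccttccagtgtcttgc
Fcgr3, chr1:171059404-171059523, minus strand: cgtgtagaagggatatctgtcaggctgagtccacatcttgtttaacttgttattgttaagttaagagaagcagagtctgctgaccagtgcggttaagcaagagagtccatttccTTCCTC
Fcgr4, chr1:171018806-171018925, plus strand: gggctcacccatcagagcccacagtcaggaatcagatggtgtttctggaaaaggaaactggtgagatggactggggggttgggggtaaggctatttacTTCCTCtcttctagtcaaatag
Fcer1g, chr1:171234350-171234469, minus strand: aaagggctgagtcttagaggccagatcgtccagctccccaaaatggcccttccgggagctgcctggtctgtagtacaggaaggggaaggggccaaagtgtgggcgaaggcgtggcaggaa
Each of the 3 activating receptors held 1 match to GAGGAA, which began 55 bases before the start site in Fcgr1, 6 bases before it in Fcgr3 and 22 bases before it in Fcgr4. Fcgr1 alone of these 4 genes also held TTCNNNGAA, which began 109 bases before the start site. Of 27025 RefSeq promoters, 11.6% held GAGGAA and 3.20% held TTCNNNGAA in the same window. Fcer1g held neither. Fcgr3 has 2 RefSeq entries, and only the first listed was searched. Its start site lies 5532 bases downstream of the GENCODE start of the gene. A match describes the letters and is not a measured binding site.

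The family was expressed at very different levels per length of transcript. In CPM per kb of merged exons, the median over 20 libraries was 262 for Fcer1g, 82.6 for Fcgr3, 19.7 for Fcgr1, 13.5 for Fcgr2b and 2.90 for Fcgr4. Fcer1g exceeded Fcgr3 in 19 of 20 libraries, and Fcgr3 exceeded both Fcgr1 and Fcgr2b in 20 of 20. The exception was the broad library hC4A/A 2, in which Fcgr3 was above Fcer1g. Fcgr1 exceeded Fcgr2b in 16 of 20 libraries, and the ranges of these neighbours overlapped, at 8.51 to 58.2 CPM per kb for Fcgr1 and 5.55 to 40.1 CPM per kb for Fcgr2b. Fcgr4 had the lowest median, but in 4 libraries it exceeded Fcgr1, in 7 it exceeded Fcgr2b and in 1 it exceeded Fcgr3. Merged exons spanned 5790 bases in Fcgr2b and 2589 bases in Fcgr1. In CPM without division by length, the medians were 78.0 for Fcgr2b and 51.0 for Fcgr1, the reverse order. So the chain that the activating receptors share was the most abundant transcript of the family. The order of Fcgr1 and Fcgr2b depended on the division by length, and that of the lower receptors on the library.

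**Figure D1:**
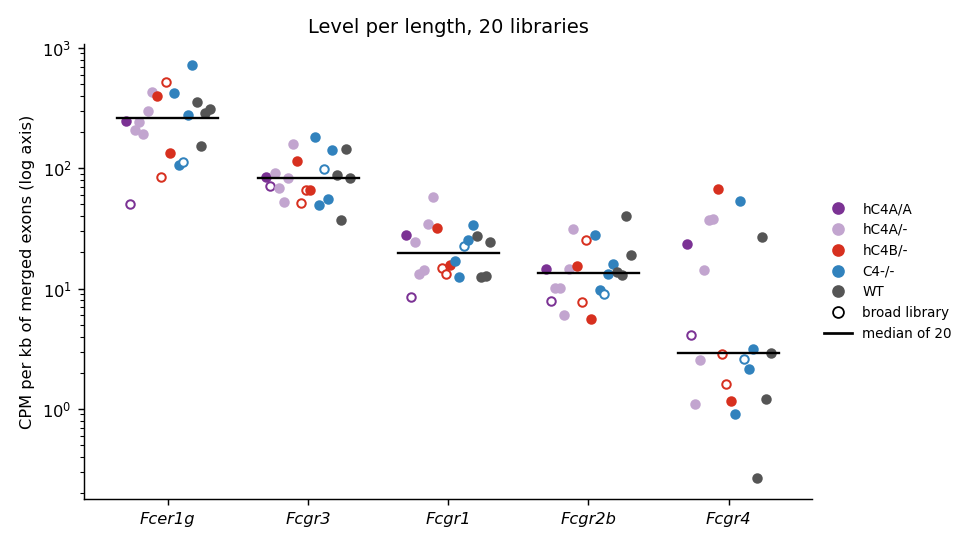
Level per length of the 5 genes in 20 libraries, as CPM per kb of merged exons on a log axis. Each point is 1 library, coloured by labelled genotype, open for the 4 broad libraries, and the bar is the median of 20. The medians step down to 2.90 CPM per kb for Fcgr4, whose points spread most widely.

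No difference between genotypes was detected for any member beyond the spread of the libraries. The 95% intervals were wide, such as -1.75 to 0.41 for Fcgr2b in the 4 genotypes together against WT. In edgeR's quasi-likelihood test with Benjamini-Hochberg adjustment over 12680 genes, 0 of 5 members passed an adjusted p of 0.05 in any of 10 contrasts, and 0 of 12680 genes (0%) passed in any of them. In the test for any difference among the 5 genotypes 0 of 5 members passed, against 15 genes (0.118%) overall. At an unadjusted p under 0.05, 0 of 5 members were called in each of the 10 contrasts. The share of all genes at that threshold was 8.41% for hC4A/A against WT, 7.51% for hC4A/- against WT, 13.1% for hC4B/- against WT, 8.55% for C4-/- against WT and 9.61% for the 4 genotypes together against WT. It was 2.17% for hC4A/A against C4-/-, 10.7% for hC4A/- against C4-/-, 4.52% for hC4B/- against C4-/-, 16.7% for hC4A/- against hC4B/-, 11.5% for hC4A/A against hC4A/- and 12% for any difference. With 5 genes, a count of 0 is near these shares, and no result about the members follows from it. DESeq2 and limma voom likewise called 0 of 5 members in every contrast. These p-values measure the spread between libraries, each taken as 1 mouse. In bulk libraries such as these, fewer cells of a type and less RNA per cell cannot be told apart.

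**Figure D2:**
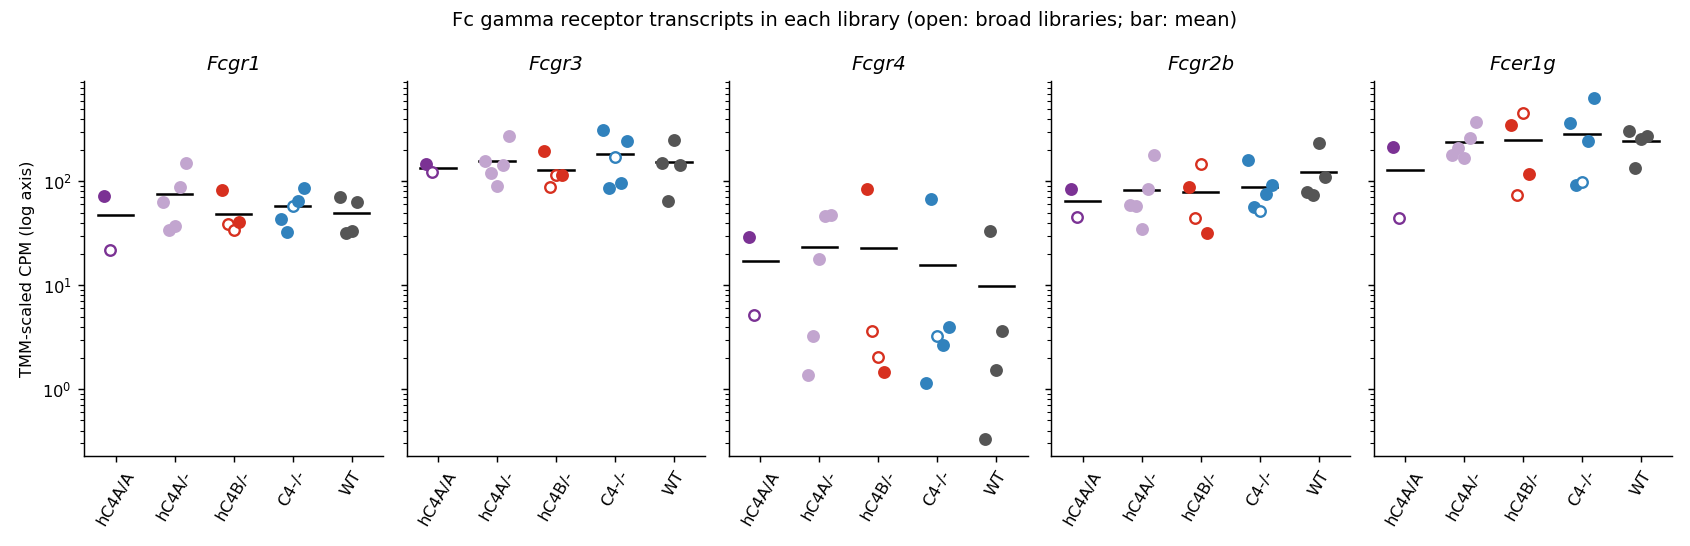
TMM-scaled CPM of each gene in each library on a log axis, by labelled genotype. Points are libraries, open for the 4 broad ones, and bars are means. The genotypes overlap for all 5 genes, and Fcgr4 alone falls into libraries below 5.18 CPM and libraries above 17.8 CPM.

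Among the activating receptors, Fcgr1 is the receptor that binds monomeric immunoglobulin G with high affinity. Fcgr1 (ENSMUSG00000015947) had 72.2 and 22.03 CPM in hC4A/A, 63.5, 34.4, 37.1, 88.4 and 151 CPM in hC4A/-, 82.0, 38.6, 34.03 and 40.9 CPM in hC4B/-, 43.7, 32.6, 58.3, 65.0 and 87.2 CPM in C4-/-, and 71.1, 32.0, 33.0 and 63.4 CPM in WT. The highest library was hC4A/- 5 and the lowest the broad hC4A/A 2, and every genotype overlapped every other. The means were 47.1 ± 35.5 CPM in hC4A/A (SD, n = 2), 74.8 ± 47.8 in hC4A/- (n = 5), 48.9 ± 22.3 in hC4B/- (n = 4), 57.4 ± 20.9 in C4-/- (n = 5) and 49.9 ± 20.3 in WT (n = 4). The log2 fold change of the 4 genotypes together against WT was 0.17 (95% interval -0.93 to 1.28, adjusted p 0.926 by edgeR's quasi-likelihood test). The 3 largest of its fold changes involved hC4A/-, at 0.58 for hC4A/- against WT, 0.61 for hC4A/- against hC4B/- and -0.66 for hC4A/A against hC4A/-. Their adjusted p-values by the same test were 0.987, 0.657 and 0.834. Without hC4A/- 5 the first was 0.16 and the second 0.19, and the third was -1.76 without hC4A/A 1 and -0.023 without hC4A/A 2.

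Fcgr3 encodes the low-affinity activating receptor of microglia and was the most abundant of the 4 receptors. Fcgr3 (ENSMUSG00000059498) had 148 and 123 CPM in hC4A/A, 157, 119, 91.3, 143 and 275 CPM in hC4A/-, 198, 89.3, 115 and 115 CPM in hC4B/-, 313, 86.7, 172, 96.7 and 246 CPM in C4-/-, and 152, 64.1, 251 and 144 CPM in WT. The lowest library was WT 2 and the third highest WT 3, and the genotypes overlapped throughout. Its means were 136 ± 17.6 CPM in hC4A/A, 157 ± 70.3 in hC4A/-, 129 ± 47.3 in hC4B/-, 183 ± 97.3 in C4-/- and 153 ± 76.8 in WT. The log2 fold change of the 4 genotypes together against WT was -0.03 (95% interval -1.09 to 1.03, adjusted p 0.996 by edgeR), and its sign turned under other scalings, to 0.17 with RLE factors. Its largest fold change was -0.50 for hC4B/- against C4-/- (95% interval -1.77 to 0.77), which turned to 0.16 without the broad libraries. Fcgr3 varied least of the 5 genes over the 20 libraries, with a coefficient of variation of 44.3%.

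Fcgr4 encodes the activating receptor that binds the mouse IgG2 subclasses, and outside the brain it is known from neutrophils and monocytes. Fcgr4 (ENSMUSG00000059089) had 29.3 and 5.18 CPM in hC4A/A, 1.38, 3.22, 17.8, 46.2 and 47.6 CPM in hC4A/-, 85.0, 3.62, 2.04 and 1.46 CPM in hC4B/-, 1.15, 67.1, 3.28, 2.69 and 3.99 CPM in C4-/-, and 0.334, 33.5, 1.53 and 3.66 CPM in WT. The values fell into 13 libraries of 0.334 to 5.18 CPM, with 1 to 9 counts each, and 7 libraries of 17.8 to 85.0 CPM, with 26 to 199 counts each. The step between them was 3.44-fold, where the largest step of the other 4 genes with at least 2 libraries on either side was between 1.25-fold and 1.33-fold. Near the floor a step of about that size also came from 1 against 2 counts, between WT 1 at 0.334 CPM and C4-/- 1 at 1.15 CPM. The split into 2 sets is a description and was not tested. The 7 libraries came from all 5 genotypes (hC4A/A 1, hC4A/- 3, 4 and 5, hC4B/- 1, C4-/- 2 and WT 2), and 0 of them were broad. The genotypes therefore overlapped while libraries of 1 genotype stood far apart.

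Markers of other cell types were summed in the same libraries. The level of the 8 neutrophil markers was 1424 CPM in WT 2, which held 47 counts of Fcgr4, and 0 CPM in both hC4B/- 1 and C4-/- 2, which had the highest levels of Fcgr4, with 199 and 72 counts. In the remaining 4 libraries above the step it was 70.9 CPM in hC4A/A 1 and 106, 114 and 1.70 CPM in hC4A/- 3, 4 and 5, and in the 13 libraries below the step it ran from 0 to 202 CPM with a median of 47.9 CPM. The 6 monocyte markers summed to 14.9 CPM in hC4B/- 1, 1.86 CPM in C4-/- 2 and 1.86 to 55.2 CPM over all libraries. The 6 border macrophage markers summed to 39.0 CPM in hC4A/A 1, to 29.5, 99.5 and 27.2 CPM in hC4A/- 3, 4 and 5, to 43.6 CPM in hC4B/- 1, to 65.3 CPM in C4-/- 2 and to 13.5 CPM in WT 2, with a median of 39.0 CPM. In the 13 libraries below the step they summed to 4.30 to 46.0 CPM, with a median of 17.97 CPM. These sums rest mostly on Mrc1, the only one of the 6 to pass the filter on low counts. Mrc1 ran from 4.30 to 99.5 CPM over all libraries, the same ends as the sum. Cd163, Pf4 and Ms4a7 were at 0 in all hC4A/- libraries, and Lyve1 and Pf4 in all C4-/- libraries. The part of these markers in the level of Fcgr4 was not tested.

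Fcgr4 had the largest fold changes of the family and the widest intervals. Its log2 fold change was 0.87 for hC4A/A against WT, 1.27 for hC4A/- against WT, 1.27 for hC4B/- against WT and 0.68 for C4-/- against WT, with adjusted p-values of 0.901, 0.980, 0.671 and 0.894 by edgeR. Together the 4 genotypes gave 1.02 against WT (95% interval -1.32 to 3.37, adjusted p 0.757), and hC4A/- and hC4B/- each gave 0.60 against C4-/-. Leaving out 1 library moved these values: without WT 2 the change of the 4 genotypes against WT was 3.37, and without C4-/- 2 that of C4-/- against WT was -1.77. Without hC4B/- 1 the change of hC4B/- against WT was -2.02. None of these passed after adjustment over all genes. The summed level of the neutrophil markers was 47.9 to 70.9 CPM in hC4A/A, 0.537 to 114 CPM in hC4A/-, 0 to 176 CPM in hC4B/-, 0 to 146 CPM in C4-/- and 102 to 1424 CPM in WT. The 1424 CPM was that of WT 2. WT 1, WT 3 and WT 4 had 129, 202 and 102 CPM, a range that overlapped those of hC4A/-, hC4B/- and C4-/-. Of 8 neutrophil markers 7 were tested, all 7 were below 0 for the 4 genotypes against WT at an unadjusted p under 0.05, with a median log2 fold change of -3.17, and 0 passed after adjustment by edgeR. In that contrast 9.61% of all genes, in either direction, had an unadjusted p under 0.05. Retnlg and Mmp8 were at 0 in all hC4A/- libraries, and Retnlg in all C4-/- libraries. The part of these markers in the values of Fcgr4 was not tested.

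Fcgr2b, the inhibitory receptor, was the only member below WT in all 4 genotypes, without passing in any. Fcgr2b (ENSMUSG00000026656) had 84.2 and 45.4 CPM in hC4A/A, 58.7, 58.0, 35.01, 84.9 and 181 CPM in hC4A/-, 88.8, 44.6, 148 and 32.2 CPM in hC4B/-, 160, 56.9, 52.4, 76.3 and 92.5 CPM in C4-/-, and 79.8, 74.7, 232 and 111 CPM in WT. The highest library was WT 3, yet libraries of hC4A/-, hC4B/- and C4-/- reached above the remaining 3 WT libraries. Its means were 64.8 ± 27.4 CPM in hC4A/A, 83.5 ± 57.3 in hC4A/-, 78.3 ± 52.2 in hC4B/-, 87.7 ± 43.7 in C4-/- and 124 ± 73.7 in WT. The log2 fold changes were -0.94 for hC4A/A, -0.57 for hC4A/-, -0.66 for hC4B/- and -0.50 for C4-/-, each against the same 4 WT libraries, and -0.67 for the 4 genotypes together (95% interval -1.75 to 0.41, adjusted p 0.661 by edgeR). Without WT 3 these values were -0.45 for hC4A/A, -0.081 for hC4A/-, -0.17 for hC4B/-, -0.012 for C4-/- and -0.18 for the 4 genotypes together. The 95% intervals of all 5 members spanned 0 in each of the 10 contrasts.

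**Figure D3:**
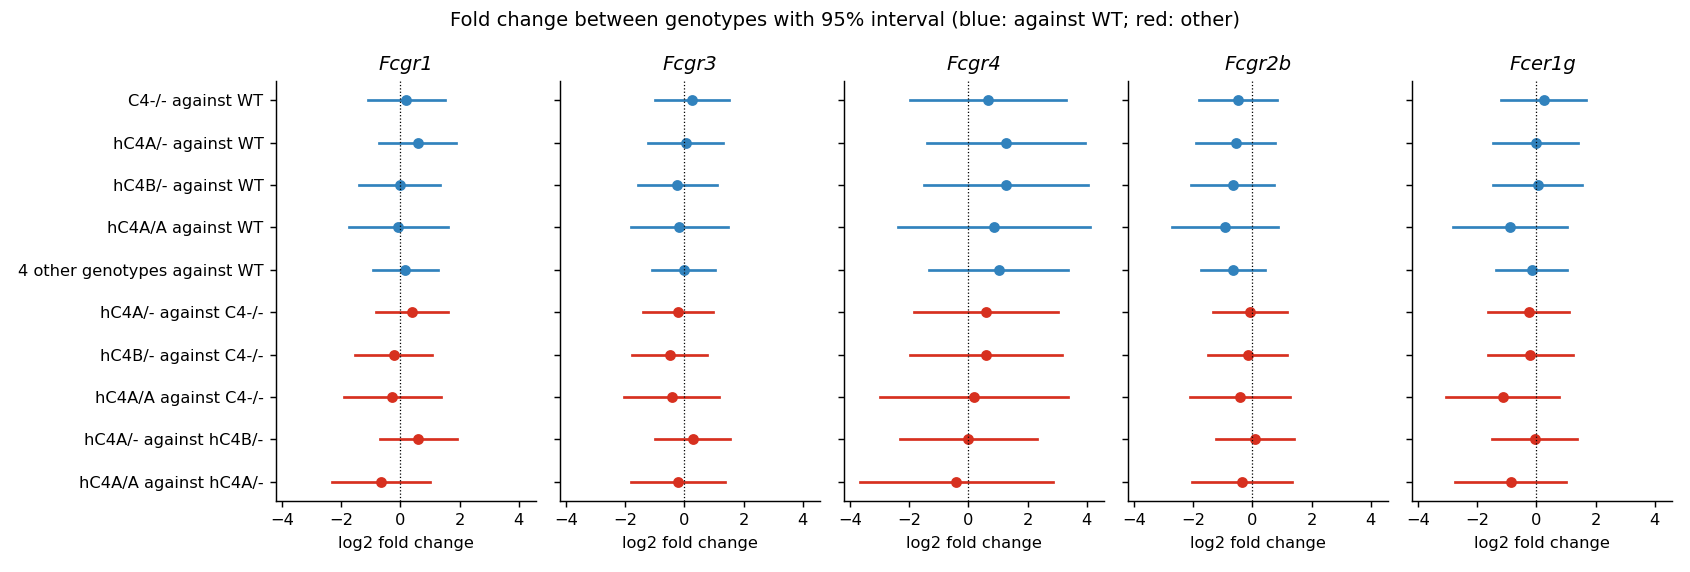
Log2 fold change of each gene in 10 contrasts, as points with 95% intervals from edgeR, blue against WT and red for the remaining contrasts. Every interval crosses 0, and those of Fcgr4 are the widest, at -1.32 to 3.37 for the 4 genotypes together against WT.

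The level of the 3 activating receptors together, in CPM per kb, relative to that of Fcgr2b had a lower mean in WT than in the remaining genotypes. This ratio was 9.39 and 10.7 in hC4A/A, 11.5, 8.44, 13.4, 10.5 and 8.13 in hC4A/-, 13.9, 8.98, 3.18 and 14.96 in hC4B/-, 7.16, 11.8, 13.7, 6.30 and 11.2 in C4-/-, and 8.35, 5.88, 3.96 and 5.75 in WT. Its mean was 10.03 ± 0.901 in hC4A/A, 10.4 ± 2.19 in hC4A/-, 10.3 ± 5.39 in hC4B/-, 10.04 ± 3.18 in C4-/- and 5.99 ± 1.80 in WT. The lowest value of all was the broad library hC4B/- 3, the WT range lay below both hC4A/A libraries and overlapped that of hC4A/-, hC4B/- and C4-/-, and the ratio was not tested. The ratio takes in Fcgr3, which shares sequence with Fcgr2b. It also rests on the length of merged exons taken for each gene, the longest being the 5790 bases of Fcgr2b.

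Fcer1g, the common chain, had the highest level of the family. Fcer1g (ENSMUSG00000058715) had 215 and 44.1 CPM in hC4A/A, 180, 211, 167, 261 and 374 CPM in hC4A/-, 351, 73.6, 451 and 118 CPM in hC4B/-, 366, 93.2, 99.0, 243 and 634 CPM in C4-/-, and 308, 134, 254 and 273 CPM in WT. The 2 lowest libraries, hC4A/A 2 and hC4B/- 2, were broad, and the broad library hC4B/- 3 was the second highest. The chi-square of its counts within genotypes was 125 per degree of freedom, where sampling noise alone gives about 1 and the 4 receptors had 27.4 to 62.7. This measure rises with the number of counts, of which Fcer1g held the most. By coefficient of variation over the 20 libraries, Fcgr4 varied more, at 140% against 59.6% for Fcer1g. The means of Fcer1g were 129 ± 121 CPM in hC4A/A, 238 ± 83.8 in hC4A/-, 248 ± 182 in hC4B/-, 287 ± 224 in C4-/- and 242 ± 75.6 in WT. The largest log2 fold changes were those of hC4A/A, at -0.90 against WT, -1.14 against C4-/- and -0.88 against hC4A/-, which rest on 2 libraries of which 1 was broad, with adjusted p-values of 0.815, 1 and 0.792 by edgeR. Without the broad library hC4A/A 2 they were -0.16, -0.19 and -0.17, and without hC4A/A 1 they were -2.46, -2.70 and -2.43. The 4 genotypes together gave -0.16 against WT (95% interval -1.36 to 1.05), and this turned to 0.026 without the broad libraries.

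Fcer1g and Fcgr2b ran most closely together across the libraries. Over 20 libraries Spearman's rho of their log2 CPM was 0.85 and Pearson's r 0.69, with permutation p-values adjusted over 10 pairs of 0.0002 and 0.0084, and r was 0.75 without the 2 libraries farthest from the median of Fcgr2b. Fcgr2b with Fcgr3 gave a rho of 0.66 and an r of 0.64 (adjusted permutation p 0.0102 and 0.0137), and r was 0.60 without its 2 farthest libraries. Fcgr3 with Fcer1g gave 0.61 and 0.57 (0.0169 and 0.0203), and r was 0.55 likewise. Fcgr1 with Fcer1g gave 0.58 and 0.60 (0.0207 and 0.0176), and r was 0.45 likewise. Among the 16 libraries that were not broad these 4 pairs kept a rho of 0.83, 0.79, 0.81 and 0.71.

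Fcgr1 with Fcgr3 gave a rho of 0.54 and an r of 0.52 (adjusted permutation p 0.0316 and 0.0400), but r was 0.43 without 2 libraries and rho 0.52 with an adjusted permutation p of 0.0833 without the broad ones. Fcgr1 with Fcgr2b did not pass, with a rho of 0.38 and an r of 0.33 (adjusted permutation p 0.166 and 0.258). For Fcgr4, rho over 20 libraries was 0.14 with Fcgr1, -0.02 with Fcgr2b, -0.19 with Fcgr3 and -0.09 with Fcer1g. The adjusted permutation p-values were 0.706, 0.953, 0.604 and 0.785. Since its libraries fell into separate ranges, these relations were also computed within the 13 lower and the 7 higher libraries. None of the 8 passed, the adjusted permutation p for rho being 0.593. These sets are small and were split by the level of Fcgr4 itself, which narrows its range, so no conclusion is drawn from them. All these values share library and depth. The summed microglia markers ran from 4407 to 9950 CPM over the same libraries, and their part in the correlations was not tested.

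**Figure D4:**
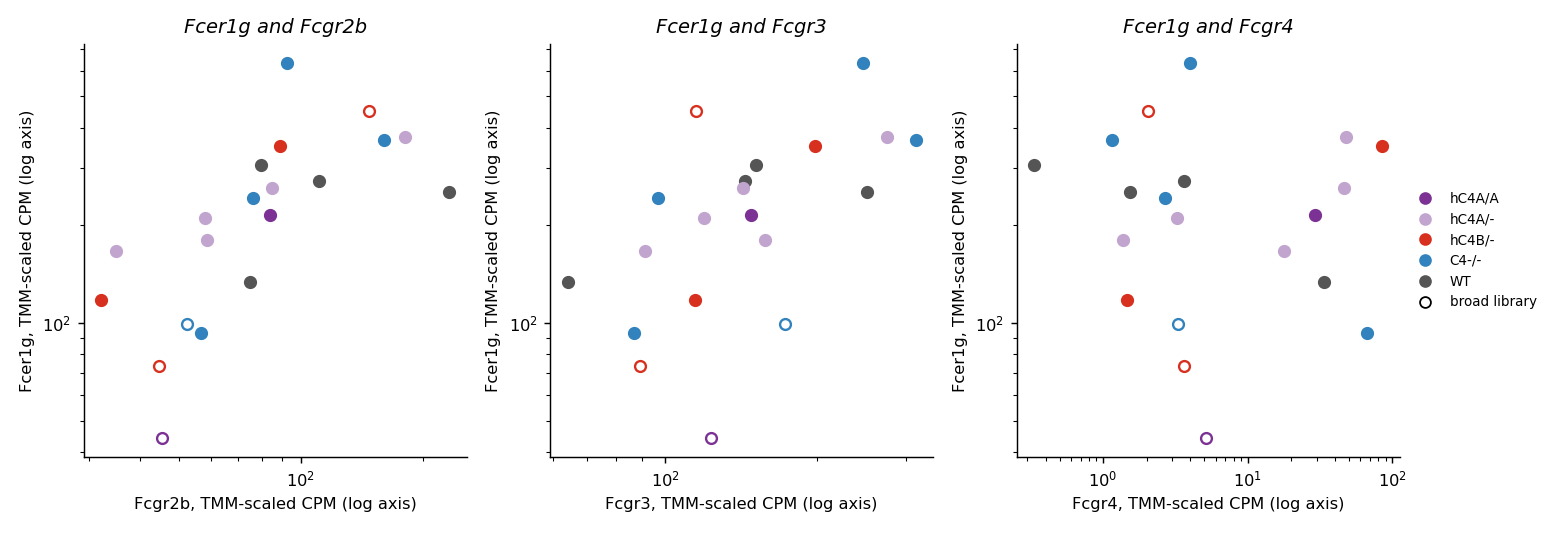
Fcer1g against Fcgr2b, Fcgr3 and Fcgr4 in 20 libraries, in TMM-scaled CPM on log axes, coloured by labelled genotype and open for broad libraries. The points follow a rising band for Fcgr2b (rho 0.85) and a looser one for Fcgr3 (rho 0.61), and form 2 separate ranges for Fcgr4.

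Of the other tested genes, those with a pattern most like each member were found by Spearman's rho of log2 CPM over the 20 libraries, as a description. Fcer1g was nearest to C1qa, a chain of complement C1q (0.97), to Cyba, a subunit of the phagocyte NADPH oxidase (0.97), and to Tyrobp, the related adaptor DAP12 (0.96). Its level per kb was 0.577 ± 0.097 of that of Tyrobp (SD, n = 20), between 0.380 and 0.749 in single libraries. Fcgr2b was nearest to Rps6, a ribosomal protein (0.90), Hspa5, a chaperone of the endoplasmic reticulum (0.89), and Atox1, a copper chaperone (0.88). Fcgr1 was nearest to Cstb, a protease inhibitor (0.86), and Ckb, a creatine kinase (0.84). Fcgr3 was nearest to Rpp25l (0.82), Ssr2 (0.81) and Vgll4 (0.81), and Fcgr4 to Fbxo38 (0.79), Zcchc4 (0.79) and Crot (0.72). The highest rho was 0.97 for Fcer1g and 0.79 for Fcgr4, and the median rho of all other genes lay between -0.05 and 0.15 for each of the 5 members. The named genes are the highest among 12680 tested genes over 20 libraries. A high rho therefore comes in part from that choice, and whether these exceed the highest values of unrelated genes was not tested.

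The genes around the receptors did not pass between genotypes either, in any of the 10 contrasts or in the test for any difference. For the 4 genotypes together against WT, the members lay 2 above and 3 below 0 with a median log2 fold change of -0.03, and of all 12680 genes 54.6% lay above and 45.4% below 0, with a median of 0.15. Of the kinases and adaptors of Fc receptor signalling, 24 of 25 were tested, 10 were above and 14 below 0, and the median was -0.19. Lyn, a Src family kinase that phosphorylates the activation motif, averaged 1403 ± 1859 CPM in hC4A/A, 1841 ± 410 in hC4A/-, 1029 ± 930 in hC4B/-, 1973 ± 1103 in C4-/- and 2263 ± 434 in WT. The 25 kinases and adaptors summed to 939 to 1563 CPM in the 4 broad libraries and 2793 to 5420 CPM in the remaining 16, and the part of the broad libraries in these means was not tested. Lyn alone averaged 1752 CPM over the 20 libraries, where the median of that sum was 3370 CPM, so the sum rests in large part on Lyn. Of the inhibitors, 17 of 18 were tested, and the median was -0.02. Inpp5d, which encodes SHIP-1, averaged 283 ± 236 CPM in hC4A/A, 181 ± 87.1 in hC4A/-, 204 ± 112 in hC4B/-, 294 ± 181 in C4-/- and 167 ± 75.0 in WT.

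Of the actin machinery that closes the phagocytic cup, 24 of 26 genes were tested, with a median of -0.26. The list summed to 842 to 2338 CPM in the broad libraries and 3384 to 5431 CPM in the remaining 16. Actr2 alone averaged 2188 CPM over the 20 libraries, where the median sum was 4087 CPM, so the sum rests in large part on Actr2. Of the inputs from interferon gamma, which induces Fcgr1 in macrophages, 11 of 12 were tested, with a median of -0.01. Irf8, an interferon regulatory factor of macrophages and one of the 2 of highest level per length in that list, averaged 304 ± 292 CPM in hC4A/A, 468 ± 131 in hC4A/-, 269.6 ± 161 in hC4B/-, 471 ± 165 in C4-/- and 742 ± 422 in WT, and did not pass (adjusted p 0.738 in edgeR's test for any difference).

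Of 13 other Fc receptors and Fc receptor-like genes, 3 passed the filter on low counts. Fcrl1, an Fc receptor-like gene best known from B cells, had the smallest p of these 3. It averaged 20.5 ± 10.7 CPM in hC4A/A, 36.9 ± 33.6 in hC4A/-, 7.16 ± 5.29 in hC4B/-, 22.02 ± 23.1 in C4-/- and 153 ± 142 in WT. Its log2 fold change for the 4 genotypes together against WT was -3.02 (SE 0.66), with an adjusted p of 0.0679 by edgeR, which missed the threshold. Fcrls, a microglia-enriched relative without a known immunoglobulin ligand, averaged 1607 ± 1857 CPM in hC4A/A, 2568 ± 371 in hC4A/-, 1345 ± 1291 in hC4B/-, 1946 ± 953 in C4-/- and 3021 ± 374 in WT. The summed level of these 13 genes was 342 to 631 CPM in the 4 broad libraries, below the 1527 to 3719 CPM of the remaining 16, where likewise their part was not tested. That sum rests mostly on Fcrls, which averaged 2162 CPM over the 20 libraries, where the median sum was 2655 CPM.

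**Figure D5:**
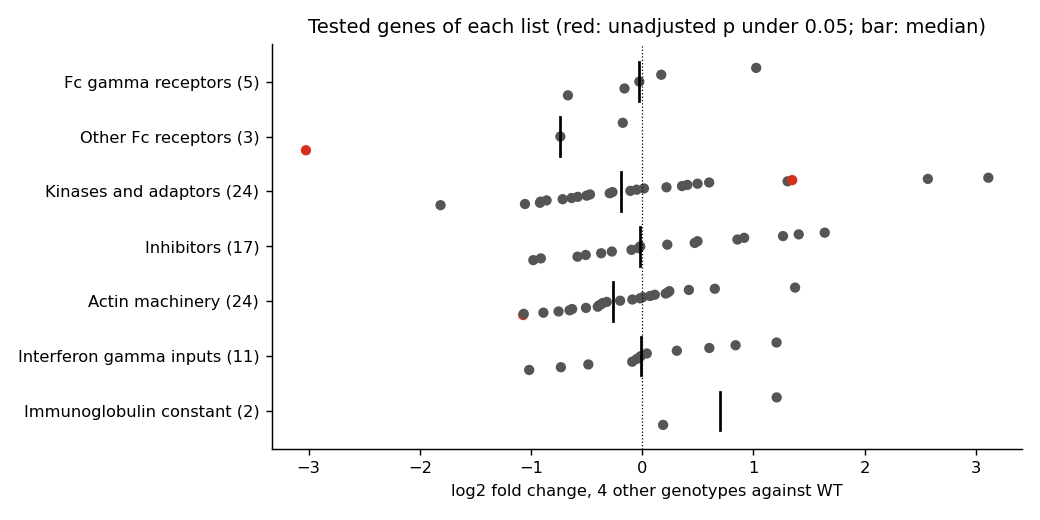
Log2 fold change of the 4 other genotypes together against WT for every tested gene of the family and of 6 related lists, with the number tested in brackets. Points are genes, red at an unadjusted p under 0.05, and bars are medians. The medians of the family, the inhibitors and the interferon gamma inputs lie at -0.03, -0.02 and -0.01.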

How the data were processed

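Microglial RNA of 20 libraries was analysed from tables of raw counts of reads per gene, as deposited, taking the column that ignores strand. Per the submitters' processing notes, STAR and edgeR were used with the build GRCm38. Versions and annotation were not given in the sources used here. A deposited series matrix of 24057 genes held the raw counts in 481140 of 481140 values, and only its set of genes was used. GENCODE annotation of GRCm38 gave symbols for 54723 of 54838 genes. Reads that were unmapped (14.8% to 42.1%), multimapping (13.2% to 28.9%), outside genes (21.8% to 42.1%) or ambiguous (0.897% to 5.86%) stayed out of library sizes. Broad libraries are those with more than 27000 genes detected.

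After filterByExpr by genotype, 12680 genes remained. They were fitted in 1 quasi-likelihood model over all libraries (edgeR 4.0.16, R 4.3.3, TMM, robust, no covariates), so that genotypes shared the estimate of spread, with a common dispersion of 1.07. The 10 contrasts compared the 4 genotypes with WT, singly and together with equal weight, the 3 genotypes with human C4 with C4-/-, hC4A/- with hC4B/-, and hC4A/A with hC4A/-. An F test covered any difference. Fold changes are printed for all members in the contrast of 4 genotypes against WT, and elsewhere where their size reached 0.5 on the log2 scale. The 28 fold changes not printed lay between -0.43 and 0.38. Levels per length used merged exons. Correlations used log2 CPM with a prior count of 2 and 100000 two-sided permutations. The cDNA was amplified, with no molecular identifiers in the labels, so chi-square values refer to counting error only.

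The members and lists were chosen with earlier results of these data known. Named genes are the members, the 3 genes of highest rho with each, and from each list any gene that passed, the 3 with the smallest p for any difference and the 2 of highest level, of which the text gives some; a few are not reported here. Alternatives were RLE factors, no filter, the genes of the series matrix, DESeq2 1.42.0, voom (limma 3.58.1), only the groups compared, no broad libraries, no satellite-like genes, a replicate block, and leaving out each library.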

Additional observations from a re-analysis of the deposited data

Results flagged for a closer look

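Of 20 combinations of a member with a genotype of 4 or 5 libraries, 4 held a library whose gap to the nearest other was above Dixon's 95% critical value. That value assumes normally distributed data, and CPM was used without a log. The combinations also reuse the same libraries, so the rate of flags by chance is not known here. The share of all genes flagged by this rule was not computed. Fcgr1 was at 82.0 CPM in hC4B/- 1, where the next library of that genotype had 40.9 CPM. Fcgr4 was at 85.0 CPM in the same library, with 3.62 CPM in the next. Fcgr4 was also at 67.1 CPM in C4-/- 2, with 3.99 CPM in the next library, and at 33.5 CPM in WT 2, with 3.66 CPM in the next. These 3 libraries belong to the 7 in which Fcgr4 held 26 counts or more.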

How the results depend on the processing

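No member passed under any alternative: of 1445 fold changes of the members recomputed, 0 passed, 1265 kept their direction and 180 reversed. The lowest adjusted p was 0.223, for Fcgr4 in hC4A/- against hC4B/- without hC4B/- 1. Among alternatives other than leaving out a library, the reversed values of the fold changes printed were those of Fcgr3 for 4 genotypes against WT, with 0.17 under RLE, 0.17 under DESeq2, 0.046 under voom and 0.11 without the broad libraries, of Fcgr1 in that contrast, -0.039 with no filter, of Fcer1g in it, 0.026 without the broad libraries, and of Fcgr3 in hC4B/- against C4-/-, 0.16 without the broad libraries. Without the broad libraries the rho of Fcgr1 with Fcgr3 was 0.52 and no longer passed. The median fold change of all genes ran from -0.32 to 0.33 under TMM and from -0.47 to 0.53 under RLE.

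The number of genes passing over the whole table depended on the filter and the tool, and the cause was not tested. In the order hC4A/A, hC4A/-, hC4B/- and C4-/- against WT, then 4 genotypes against WT, it was 3, 65, 28, 26 and 261 with no filter, 5, 83, 48, 37 and 172 with the genes of the series matrix, and 4, 39, 55, 24 and 32 with DESeq2. For hC4A/- against C4-/-, hC4B/- against C4-/-, hC4A/- against hC4B/- and any difference it was 53, 16, 36 and 697 with no filter, 72, 25, 64 and 608 with the series matrix and 15, 3, 93 and 71 with DESeq2, which also gave 1 for hC4A/A against C4-/- and 2 for hC4A/A against hC4A/-. RLE gave 2 for 4 genotypes against WT and 24 for any difference. Voom gave 1 for hC4A/- against WT, 3 for 4 genotypes against WT, 1 for hC4A/- against C4-/-, 6 for hC4A/A against hC4A/- and 0 for any difference. With only the groups compared, hC4A/A and hC4A/- against WT gave 1 each. Without the broad libraries hC4A/- against WT gave 1, 4 genotypes against WT 1 and any difference 2, and without satellite-like genes 4 genotypes against WT gave 2. The genes tested numbered 44941 with no filter, 24057 with the series matrix, 12667 without satellite-like genes and 12680 in the remaining settings. None of the genes passing was a member, and with 5 members no result about them follows from that.

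Leaving out each library in turn gave 0 to 1 genes passing for hC4A/A against WT, 0 to 2 for hC4B/- against WT, 0 to 17 for 4 genotypes against WT, 0 to 8 for hC4A/- against hC4B/- and 0 to 34 for any difference. The log2 fold change of Fcgr4 ran from -0.88 to 3.21 for hC4A/A against WT, from -2.02 to 3.62 for hC4B/- against WT, from -1.77 to 3.02 for C4-/- against WT and from -2.70 to 3.05 for hC4B/- against C4-/-. For 4 genotypes against WT that of Fcgr1 ran from -0.11 to 0.39 and that of Fcgr3 from -0.28 to 0.32.

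No clear pairing of libraries by replicate number was seen. Over 33 pairs of the same number the correlation of deviations had a median of 0.00833 and ran from -0.301 to 0.697. Over 124 pairs of other numbers it had a median of -0.00143 and ran from -0.710 to 0.710. It was over 0.1 in 5 of the 33 and in 12 of the 124, and 6 of 20 libraries correlated best with their own number. With so few libraries per number, the check cannot exclude a shared batch. With the replicate number as a block, 0 members passed, 1 gene passed for 4 genotypes against WT and 0 for any difference, against 15 for any difference without the block. Precision is limited by the common dispersion of 1.07, by the 1 to 9 counts of Fcgr4 in 13 libraries and by the 2 libraries of hC4A/A.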

Other observations

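Of 13 immunoglobulin constant genes, 2 passed the filter on low counts. Ighm, the constant gene of IgM, averaged 23.9 ± 17.4 CPM in hC4A/A, 24.6 ± 12.4 in hC4A/-, 71.1 ± 35.7 in hC4B/-, 79.2 ± 86.7 in C4-/- and 37.3 ± 16.9 in WT, and Ighd at most 9.07 CPM in any library. Fcgrt, the neonatal Fc receptor that recycles immunoglobulin G inside the cell, averaged 9.85 ± 4.77 CPM in hC4A/A, 39.9 ± 32.1 in hC4A/-, 23.3 ± 13.5 in hC4B/-, 28.7 ± 15.3 in C4-/- and 25.6 ± 22.9 in WT. Neither passed in any contrast by edgeR. Markers of NK cells and of mast cells and basophils, which use the same Fcer1g chain, held 0 tested genes of 6 each, and their sums reached 10.4 CPM at most.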
